A study of Mus musculus with 84 samples.

Results

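The 8 genes used as markers of direct-pathway neurons of the striatum, *Tac1*, *Chrm4*, *Slc35d3*, *Eya1*, *Sfxn1*, *Ebf1*, *Rxfp1* and *Crym*, were examined in bulk RNA sequencing of mouse ventrolateral striatum. They were taken by name, as the entries of the deposited count table whose Ensembl identifier carries one of these symbols, and all 8 of the 43629 genes in the table were found. The tissue came from 84 adult mice of the SOT and NOT strains, labelled S4, which were bred for ethanol preference together with ethanol withdrawal. All animals were naive and untreated, so the groups differ by breeding and not by exposure to ethanol. The labels place 44 animals (21 females, 23 males) in a High Drinker group and 40 (18 females, 22 males) in a Low Drinker group, and do not say which of SOT and NOT belongs to which group. Each library is 1 animal, and the striatum was dissected by hand from frozen brain.

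Medium spiny neurons make up most of the neurons of the striatum and fall into a direct and an indirect pathway. Direct-pathway neurons carry the dopamine D1 receptor, project to the internal pallidum and substantia nigra, release GABA with substance P and dynorphin, and favour movement. Indirect-pathway neurons carry the dopamine D2 receptor and an adenosine receptor, release GABA with enkephalin, and oppose it. Of the 8 genes, *Tac1* encodes the precursor of the peptides substance P and neurokinin A. *Chrm4* encodes the M4 muscarinic receptor, an inhibitory acetylcholine receptor that opposes D1 signalling, and *Rxfp1* the receptor for the hormone relaxin. *Slc35d3* encodes a member of the nucleotide sugar transporter family that has been linked to D1 receptor trafficking, and *Sfxn1* a serine transporter of the mitochondrial membrane. *Ebf1* encodes a transcription factor needed for the maturation of direct-pathway neurons, *Eya1* a transcriptional coactivator and phosphatase, and *Crym* mu-crystallin, a protein that binds thyroid hormone in the cytosol.

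In these libraries the 8 genes did not behave as 1 group. *Tac1*, *Chrm4*, *Slc35d3*, *Sfxn1* and *Ebf1* varied together and followed 3 other direct-pathway genes, *Drd1* (the D1 receptor), *Pdyn* (the dynorphin precursor) and *Isl1* (a transcription factor). Over the 84 libraries, the correlation with the mean of these 3 genes was 0.98 for *Tac1*, 0.97 for *Slc35d3*, 0.86 for *Ebf1*, 0.81 for *Chrm4* and 0.70 for *Sfxn1*. It was 0.42 for *Crym*, 0.16 for *Eya1* and -0.76 for *Rxfp1*. *Rxfp1* thus ran against the other direct-pathway genes in this tissue. *Eya1* did not follow them over all libraries, but the 2 larger sheet sets (described below) differed. Its r was -0.14 in sheet set 1 and 0.46 in sheet set 2. The genes are therefore called here the 8 genes, or by name. Whole tissue does not show which cell a transcript came from, and fewer cells of a type cannot be told apart from less RNA per cell.

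Library totals ran from 22190363 to 41300401 counts, and 0 of 3486 pairs of libraries held identical values. Sample sheet numbers in the titles, with the animal numbers, divide the libraries into 3 sheet sets of 48, 30 and 6. The labels do not say what the sets stand for, and the groups are spread unequally over them, with 30, 11 and 3 High Drinker and 18, 19 and 3 Low Drinker libraries. Low Drinker 8 stood apart from the rest in its rank correlation with the other libraries. Low Drinker 8, 34, 33 and 32 and High Drinker 17 were the 5 least similar, and the results below were also computed without them. Values are CPM (counts scaled to the total of the library, with TMM factors), and levels of different genes are compared only after division by the summed exon length, as CPM per kilobase.

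Promoter sequence is shown for the genes that moved together, as the 250 bases before the start site in RefSeq (GRCm38.p6), trimmed so that no base lies inside the gene. Of the 8 genes, 4 had such sequence. They are written 5′ to 3′ on the coding strand, and capitals mark the motifs CCAAT and GGGCGG on either strand. *Slc35d3*, the gene with the widest range, has the sequence of chr10:19851460-19851709, minus strand. That of *Chrm4* is chr2:91921939-91922188, plus strand, that of *Sfxn1* chr13:54071595-54071844, plus strand, and that of *Tac1* chr6:7554811-7554878, plus strand, where 68 bases remained after trimming.
Slc35d3: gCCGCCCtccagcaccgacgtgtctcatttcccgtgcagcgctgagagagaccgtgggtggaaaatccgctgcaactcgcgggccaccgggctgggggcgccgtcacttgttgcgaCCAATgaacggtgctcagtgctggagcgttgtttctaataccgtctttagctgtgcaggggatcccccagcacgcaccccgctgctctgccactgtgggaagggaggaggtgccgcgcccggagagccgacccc
Chrm4: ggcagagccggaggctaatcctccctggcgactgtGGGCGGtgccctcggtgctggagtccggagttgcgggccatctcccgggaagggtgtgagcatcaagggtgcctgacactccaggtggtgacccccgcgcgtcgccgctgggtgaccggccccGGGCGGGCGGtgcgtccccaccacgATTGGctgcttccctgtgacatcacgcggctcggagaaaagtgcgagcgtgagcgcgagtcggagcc
Sfxn1: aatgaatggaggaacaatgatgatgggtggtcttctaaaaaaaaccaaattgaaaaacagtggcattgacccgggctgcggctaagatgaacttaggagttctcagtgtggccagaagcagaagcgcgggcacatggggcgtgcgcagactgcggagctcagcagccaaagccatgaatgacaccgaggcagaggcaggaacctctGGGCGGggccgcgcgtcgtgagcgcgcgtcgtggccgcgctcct
Tac1: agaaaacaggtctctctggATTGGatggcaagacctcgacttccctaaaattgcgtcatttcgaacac
CCAAT, the box bound by the NF-Y complex, occurs in the printed sequence of *Slc35d3* and, on the other strand as ATTGG, in those of *Chrm4* and *Tac1*. It occurs in 33.8% of the 32851 promoters in the table. GGGCGG, the core of the GC box bound by Sp1 and its relatives, occurs in *Slc35d3*, *Chrm4* and *Sfxn1*, where the copies of *Chrm4* near its CCAAT box overlap each other, and in 32.7% of all promoters. In *Tac1* it lies in bases of the window that were trimmed. A search on both strands for TATAAA (the TATA box), TGACGTCA (the cyclic AMP response element) and the palindromic motif of the EBF family, which occur in 12.4%, 1.55% and 0.779% of all promoters, found no match in the 250-base windows of these 4 genes. A match is a string of letters and not a measured binding site.

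The levels differed over a wide range. On the scale of CPM per kilobase of exon, the mean level was 40.6 ± 13 (SD, n = 84) for *Crym*, 39.5 ± 23.2 for *Tac1*, 29.1 ± 9.07 for *Chrm4*, 23 ± 2.67 for *Sfxn1*, 9.29 ± 5.46 for *Slc35d3*, 1.84 ± 0.969 for *Rxfp1*, 1.08 ± 0.186 for *Eya1* and 0.662 ± 0.379 for *Ebf1*. *Crym* and *Tac1* changed places from library to library, *Crym* being the higher in 40 of 84, and *Tac1* exceeded *Chrm4* in 52. *Chrm4* exceeded *Sfxn1* in 63 and *Rxfp1* exceeded *Eya1* in 62, so these neighbours overlapped too. *Sfxn1* exceeded *Slc35d3* in all 84 libraries. The entry of *Chrm4* holds a single exon of 1440 bases downstream of the RefSeq start site, so its level per kilobase refers to the coding exon only.

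The spread of a gene over libraries was not tied to its level. The SD of log2 CPM was 1.45 for *Slc35d3*, 1.14 for *Tac1*, 0.92 for *Rxfp1* and 0.86 for *Ebf1*, which placed these 4 genes at or above the 94.2 percentile of 17071 tested genes. *Crym* with 0.49 and *Chrm4* with 0.43 lay above the median gene, at 0.27. *Eya1* with 0.25 and *Sfxn1* with 0.16 lay below it.

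*Tac1* (ENSMUSG00000061762, mm10 chr6:7554879-7565834, plus strand) is the only peptide precursor of the set. It ranged from 19.3 CPM through a median of 136 to 288 CPM in 44 High Drinker libraries, and from 13.3 through 114 to 319.7 CPM in 40 Low Drinker libraries. The groups overlapped over nearly the whole range, with 4 Low Drinker libraries below every High Drinker library and 1 above. The fitted log2 difference, High minus Low Drinker, was 0.05 ± 0.22 (SE), a fold of 1.03, and 30 of 44 High Drinker libraries lay above the Low Drinker median.

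*Chrm4* (ENSMUSG00000040495, mm10 chr2:91927249-91928688, plus strand) is the first of the receptors. Its level was 23.5, 39.5 and 88.9 CPM at the lowest, median and highest High Drinker library and 24.7, 36.6 and 68.4 CPM in the Low Drinker group. Both ends of the distribution belonged to High Drinker libraries, 2 above and 2 below every Low Drinker library. The log2 difference was 0.09 ± 0.09 (SE), with 29 of 44 High Drinker libraries above the Low Drinker median.

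*Rxfp1* (ENSMUSG00000034009, mm10 chr3:79641611-79737880, minus strand), the relaxin receptor, had its lower median in the High Drinker group. High Drinker libraries held 1.68, 16.3 and 36.6 CPM at their lowest, median and highest, and Low Drinker libraries 3.17, 18.1 and 39.6 CPM. The lowest values belonged to High Drinker 17 and Low Drinker 1, which were among the highest in *Slc35d3* and *Tac1*. Its log2 difference was -0.09 ± 0.18 (SE), and 17 of 44 High Drinker libraries lay above the Low Drinker median.

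*Slc35d3* (ENSMUSG00000050473, mm10 chr10:19847917-19851459, minus strand), of the sugar transporter family, had the widest range of the 8, 129-fold between the lowest and the highest library. High Drinker libraries ranged from 1.05 through 24.5 to 51.7 CPM, and Low Drinker libraries from 0.433 through 20.4 to 56.0 CPM. The lowest value rests on 12 counts in Low Drinker 33. The next lowest libraries were Low Drinker 32 at 0.629 CPM, High Drinker 43 at 1.05 CPM, Low Drinker 34 at 1.06 CPM and Low Drinker 35 at 1.51 CPM, all of sheet set 2. Values between these ends were continuous and the groups overlapped. The log2 difference was 0.07 ± 0.24 (SE), with 29 of 44 High Drinker libraries above the Low Drinker median.

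*Sfxn1* (ENSMUSG00000021474, mm10 chr13:54071845-54108346, plus strand), the mitochondrial serine transporter, had the narrowest range, 1.86-fold. It was 53.1, 64.1 and 85.2 CPM at the lowest, median and highest High Drinker library and 48.1, 64.9 and 89.4 CPM in Low Drinker libraries. The groups were centred at the same level, and the Low Drinker group held both ends. High minus Low Drinker gave a log2 difference of -0.03 ± 0.03 (SE).

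*Ebf1* (ENSMUSG00000057098, mm10 chr11:44617317-45008091, plus strand), the transcription factor, was the least abundant per kilobase. Its level was 2.33, 6.43 and 20.4 CPM at the lowest, median and highest High Drinker library and 1.47, 5.54 and 13 CPM in Low Drinker libraries. Low Drinker libraries filled the bottom, 7 of them below every High Drinker library, and 3 High Drinker libraries lay above every Low Drinker one. Of the 10 lowest libraries, 8 were Low Drinker and 7 belonged to sheet set 2, which holds more Low than High Drinker libraries. The log2 difference was 0.16 ± 0.16 (SE), and 24 of 44 High Drinker libraries exceeded the Low Drinker median.

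*Eya1* (ENSMUSG00000025932, mm10 chr1:14168954-14310235, minus strand), the coactivator, gave the difference between groups that was largest against its own error. High Drinker libraries held 6.19, 8.89 and 12.6 CPM at the lowest, median and highest, and Low Drinker libraries 5.39, 7.82 and 11.5 CPM. The ranges overlapped, but 34 of 44 High Drinker libraries lay above the Low Drinker median. The log2 difference was 0.17 ± 0.05 (SE), a fold of 1.12, with an edgeR quasi-likelihood p of 0.00281 and a Benjamini-Hochberg adjusted p of 0.0603 over 17071 genes.

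*Crym* (ENSMUSG00000030905, mm10 chr7:120186380-120202111, minus strand), the thyroid hormone binding protein, ranged from 63.6 through 132 to 258 CPM in High Drinker and from 37.6 through 127 to 235 CPM in Low Drinker libraries. Its 3 lowest libraries, Low Drinker 2 at 37.6 CPM, Low Drinker 3 at 41.8 CPM and High Drinker 1 at 63.6 CPM, were females of sheet set 3. It differed by 0.03 ± 0.10 (SE) on the log2 scale.

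**Figure D1:**
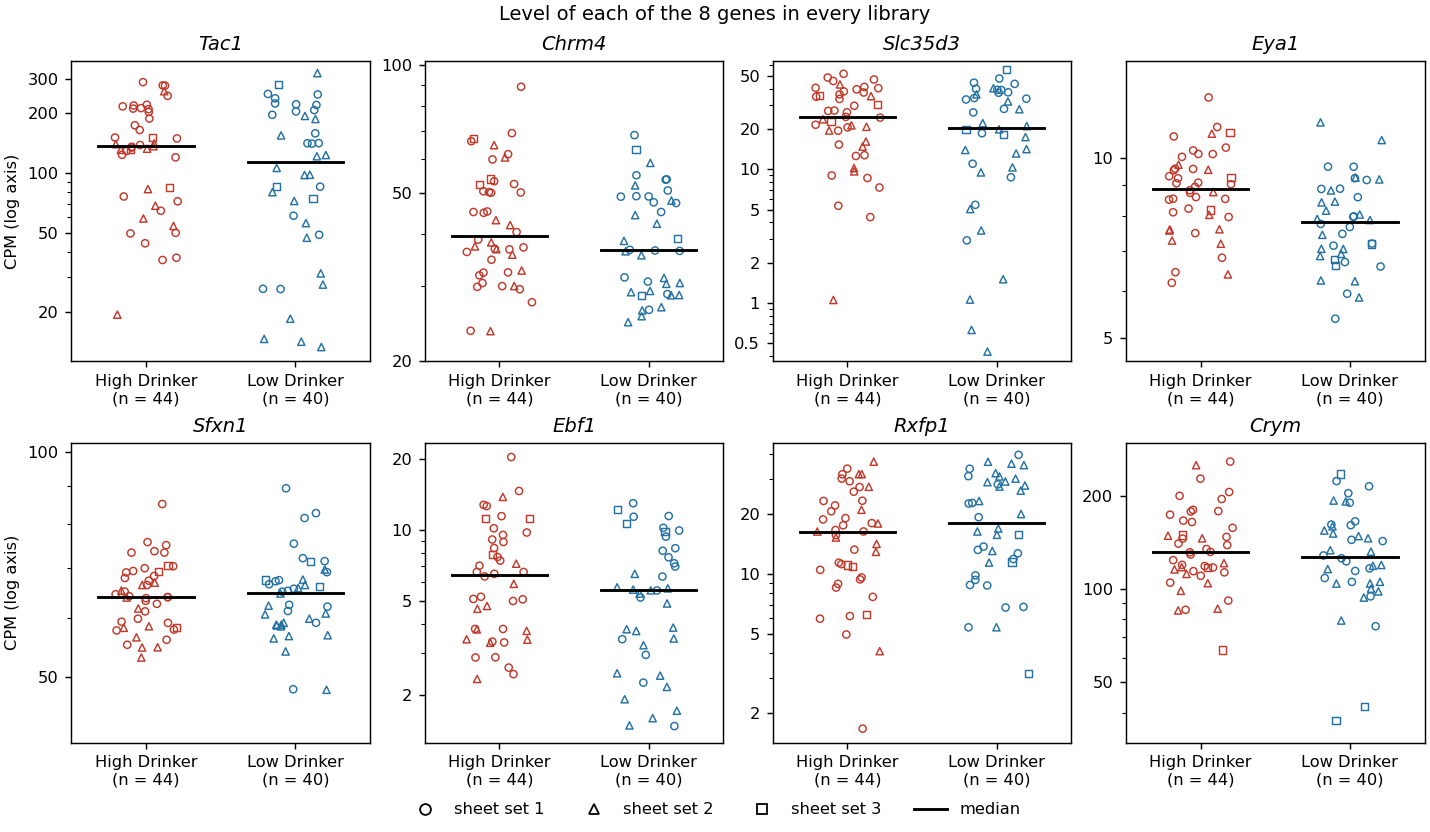
Level of each of the 8 genes in every library, as CPM on a log axis, for 44 High Drinker (red) and 40 Low Drinker (blue) libraries; marker shapes show the sheet set and black lines the group medians. The groups overlap in all 8 panels; *Slc35d3* spans 129-fold and *Sfxn1* 1.86-fold, and *Eya1* has medians of 8.89 and 7.82 CPM.

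Tested together, 0 of the 8 genes passed an adjusted p of 0.05 for the difference between the drinking groups in edgeR's quasi-likelihood test with sheet set and sex in the model, where 3.94% of all 17071 tested genes passed (1.86% higher and 2.08% lower in High Drinker libraries). At an unadjusted p under 0.05 there was 1 gene, *Eya1*, in edgeR and likewise 1 in DESeq2 and in limma-voom, where 18%, 18.5% and 18.2% of all tested genes lay under it. DESeq2 called *Eya1* after adjustment (0.16, adjusted p = 0.0467, with 4.86% of all genes called). *Eya1* also passed in edgeR without the sheet set term, where 5.07% of all genes passed, with a score of cortical neuron genes as covariate (6.67%) and with 5 surrogate variables (14.6%). Over the 8 genes the median log2 difference was 0.06 and 6 of 8 were positive, against a median of 0.00 and 50.6% positive over all tested genes. *Tac1*, *Chrm4*, *Slc35d3*, *Sfxn1* and *Ebf1* vary together over libraries, so these signs are not independent. The 95% interval of the difference reached from -0.38 to 0.47 for *Tac1*, from -0.39 to 0.53 for *Slc35d3* and from -0.44 to 0.26 for *Rxfp1*, so changes of that size could not be seen at this spread. For *Sfxn1* the interval was -0.10 to 0.03, and for *Eya1* 0.06 to 0.27. Within sheet set 1 alone the log2 difference of *Eya1* was 0.20 ± 0.07 (SE), and within sheet set 2 alone 0.02 ± 0.09 (SE). In the same 2 sets, *Slc35d3* gave -0.08 ± 0.27 and 0.36 ± 0.50, *Ebf1* 0.02 ± 0.23 and 0.39 ± 0.24, *Tac1* -0.04 ± 0.26 and 0.26 ± 0.43, *Chrm4* -0.01 ± 0.13 and 0.19 ± 0.15, *Rxfp1* -0.02 ± 0.25 and -0.28 ± 0.26, *Sfxn1* -0.06 ± 0.05 and -0.02 ± 0.05, and *Crym* 0.04 ± 0.12 and 0.01 ± 0.14 (SE). Sheet set 3 holds 3 libraries of each group and was not fitted alone. Without the 5 least similar libraries *Tac1* gave -0.05 ± 0.21 and *Slc35d3* -0.04 ± 0.22 (SE). *Eya1* gave 0.14 ± 0.05 (SE, adjusted p = 0.141) without these 5, and 0.15 ± 0.05 (adjusted p = 0.121) without Low Drinker 8 alone.

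A list of 14 genes shared by all medium spiny neurons, which holds none of the 8 (*Ppp1r1b*, *Rgs9* and others), gave these values: 0 of 14 passed the test, 14 of 14 log2 differences were positive and their median was 0.14. These 14 genes vary together, with r with *Slc35d3* from 0.80 (*Foxp1*) to 0.97 (*Rarb*), so their signs are not independent. The summed level of the list ran from 1546 through a median of 6906 to 19366 CPM in High Drinker libraries. In Low Drinker libraries it ran from 1187 through 6037 to 15379 CPM. With the mean of this list (each gene's log2 CPM standardized over libraries) as a covariate, the differences of *Tac1*, *Slc35d3* and *Ebf1* were -0.02 ± 0.09, -0.04 ± 0.09 and -0.01 ± 0.07 (SE), and their errors fell below those of the fit without it. That of *Eya1* was 0.16 ± 0.05 (SE, adjusted p = 0.0545).

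**Figure D2:**
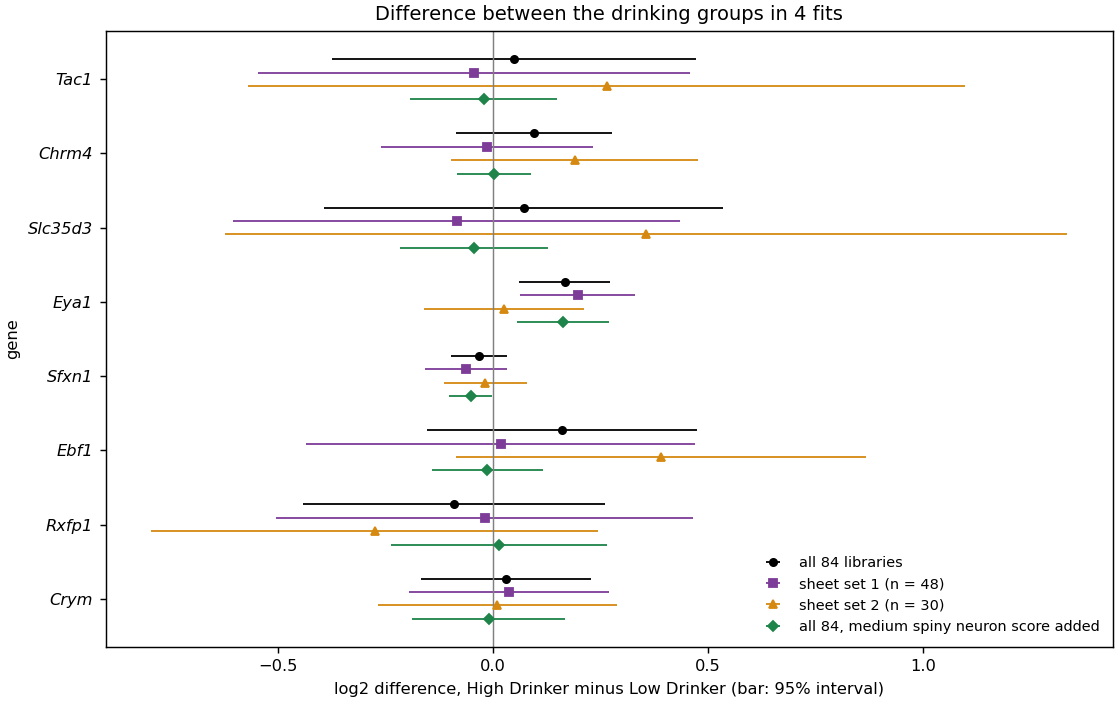
Log2 difference of each gene, High Drinker minus Low Drinker, with its 95% interval in 4 fits: all 84 libraries, sheet set 1 alone (48), sheet set 2 alone (30), and all 84 with the medium spiny neuron score added. The intervals of *Tac1* and *Slc35d3* are wide in sheet set 2 and narrow once the score is added, and *Eya1* lies at 0.17, 0.20, 0.02 and 0.16.

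Sex and its interplay with the groups gave no call among the 8 genes. For males against females 0 of 8 passed in edgeR, with 0.0996% of all genes called, and 1, *Crym*, had an unadjusted p under 0.05, as 4.03% of all genes did. The log2 difference of *Crym*, male minus female, was 0.22 ± 0.10 (SE, edgeR adjusted p = 1). DESeq2 and limma-voom likewise gave 0 calls and 1 gene at the unadjusted threshold. Of all 17071 genes they called 17 and 15, and 4.2% and 4.02% lay under that threshold. The test of whether the group difference itself differed by sex called 0 of 8, and 0 members reached an unadjusted p under 0.05, in edgeR (0% of all genes called, 965 of 17071 at an unadjusted p under 0.05), DESeq2 and limma-voom. In DESeq2 6.06% and in limma-voom 5.86% of all genes lay under that p, and each called 0. The interaction was 0.64 ± 0.43 (SE) for *Tac1*, with a log2 difference of -0.24 ± 0.27 in females and 0.43 ± 0.32 in males.

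The study's design names differential variance and network wiring as questions, and both were measured for the 8 genes. The mean absolute deviation of log2 CPM from the median differed, High minus Low Drinker, by -0.34 ± 0.22 (SE) for *Slc35d3* and by -0.30 ± 0.16 (SE) for *Tac1*, the lower spread being that of High Drinker libraries. Without the 5 least similar libraries these were -0.17 ± 0.19 and -0.21 ± 0.16 (SE). In limma 0 of 8 passed (0.0117% of all genes called) and 0 reached an unadjusted p under 0.05, as 4.07% of all genes did.

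Co-variation was strong and divided the genes. Of 28 pairs, 20 had a Pearson correlation of log2 CPM past an adjusted p of 0.05, 14 positive and 6 negative. The test was a two-sided permutation test with 100000 resamples. By rank, 22 of 28 pairs passed. The share of all gene pairs past this threshold was not computed. The median absolute r was 0.58 over the 28 pairs and 0.20 over all pairs of tested genes. An absolute r of at least 0.5 was found in 15 of 28 pairs, where 11.1% of all pairs of tested genes reach it. It was positive in 10 and negative in 5, against 5.92% and 5.14% of all pairs. Points in each correlation are the same 84 libraries, with shared depth, scaling and tissue make-up.

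*Tac1*, *Chrm4*, *Slc35d3*, *Sfxn1* and *Ebf1* formed the positive side. Their 10 pairs had r from 0.60 to 0.95 with a median of 0.77, and each had the smallest p that the permutations can give, 1e-05 (adjusted 1.75e-05). *Tac1*, the peptide precursor, and *Slc35d3*, the transporter-family gene, were the closest pair, with r = 0.95 and a Spearman rho of 0.95, and r = 0.95 without the 2 libraries farthest from the *Tac1* median. *Chrm4* and *Ebf1* followed with r = 0.85 (rho 0.85, and 0.84 without the 2 farthest). The weakest of the 10 was *Chrm4* with *Sfxn1* at 0.60 (rho 0.58, and 0.56 without the 2 farthest). The 10 correlations lay between 0.57 and 0.97 in sheet set 1 alone, between 0.53 and 0.95 in sheet set 2 alone, between 0.52 and 0.95 in High Drinker and between 0.69 and 0.96 in Low Drinker libraries. The same libraries lay at the bottom: of the 10 lowest in *Slc35d3*, 9 were among the 10 lowest in *Tac1*, 9 in *Ebf1*, 7 in *Chrm4* and 4 in *Sfxn1*.

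*Rxfp1*, the relaxin receptor, formed the negative side. Its r was -0.76 with *Tac1*, -0.72 with *Chrm4*, -0.69 with *Slc35d3*, -0.69 with *Ebf1* and -0.55 with *Sfxn1*, each with an adjusted permutation p of 1.75e-05, and rho lay between -0.84 and -0.60. These stayed between -0.76 and -0.47 in sheet set 1 and between -0.76 and -0.55 in sheet set 2. Of the 10 libraries lowest in *Slc35d3*, 5 were among the 10 highest in *Rxfp1* and 0 among its 10 lowest.

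*Crym* and *Eya1* stood aside in Pearson correlation. *Crym*, the thyroid hormone binding protein, had r = 0.48 with *Tac1* (rho 0.64), 0.39 with *Chrm4*, 0.36 with *Sfxn1*, 0.32 with *Slc35d3* (rho 0.55) and -0.48 with *Rxfp1*. All of these were past the threshold, and r = 0.17 with *Ebf1* was not (adjusted permutation p = 0.153). By rank, *Crym* also passed with *Ebf1* (rho 0.28, adjusted permutation p = 0.0143) and with *Eya1* (rho -0.26, adjusted permutation p = 0.0254). *Eya1* had 0 of 7 Pearson correlations past the threshold, with r from -0.18 with *Crym* to 0.23 with *Slc35d3* (adjusted permutation p = 0.0511). Its r with *Tac1* was 0.16, with -0.16 in sheet set 1 alone and 0.48 in sheet set 2 alone (adjusted permutation p = 0.0106 within that set), so the pooled value did not hold within the sets.

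**Figure D3:**
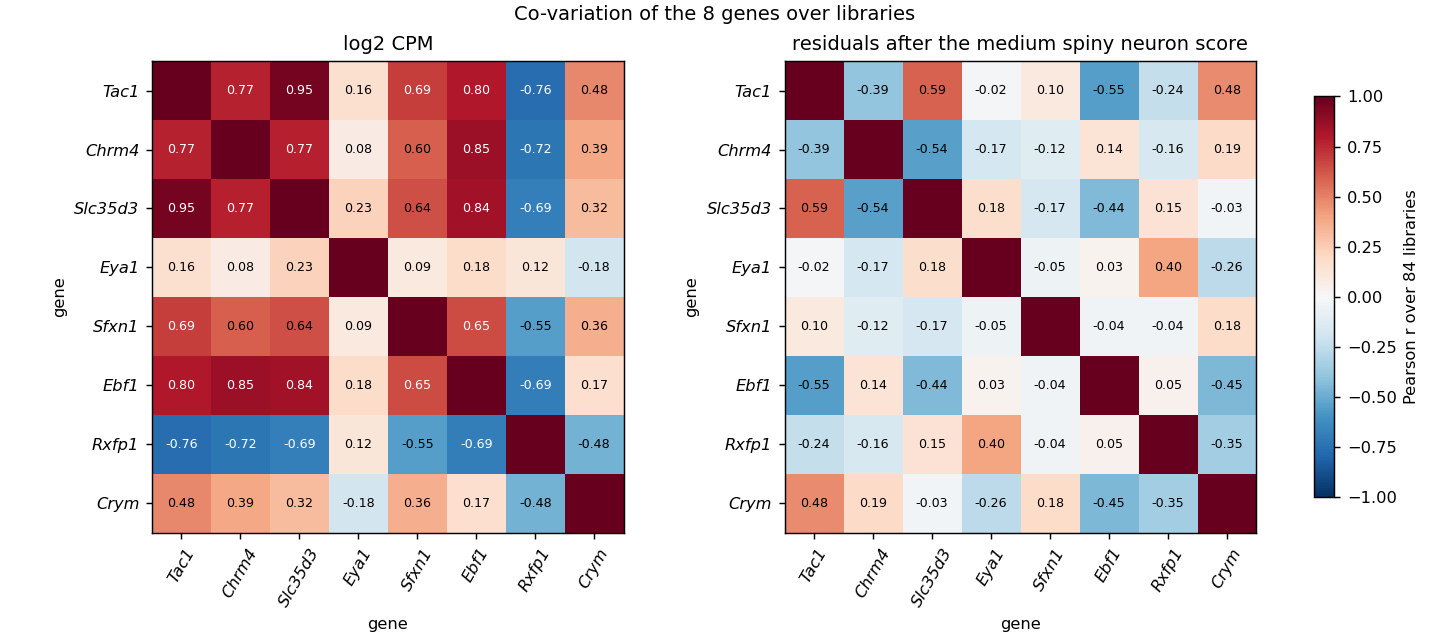
Pearson r of log2 CPM over 84 libraries for each pair of the 8 genes (left), and of the residuals after the medium spiny neuron score (right), on a colour scale from -1 (blue) to 1 (red). On the left *Tac1*, *Chrm4*, *Slc35d3*, *Sfxn1* and *Ebf1* share r of 0.60 to 0.95 and *Rxfp1* is negative with each; on the right 10 of 28 pairs remain past the threshold.

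The difference in correlation between the groups was tested by permuting the group labels 10000 times within sex and sheet set, on residuals after set, sex and group. It passed for 0 of 28 pairs, and 3 pairs, all with *Eya1*, had an unadjusted permutation p under 0.05. For *Eya1* with *Ebf1*, r was -0.11 over High Drinker libraries and 0.36 over Low Drinker libraries (p = 0.0165, adjusted 0.228), *Eya1* with *Chrm4* -0.19 and 0.25 (p = 0.0214), and *Eya1* with *Slc35d3* -0.10 and 0.36 (p = 0.0244). With ranks in place of values, 1 of 28 passed, *Eya1* with *Ebf1*. Its rho was -0.14 over High Drinker libraries and 0.48 over Low Drinker libraries (adjusted permutation p = 0.0448). With both groups together, r of log2 CPM for this pair was -0.05 in sheet set 1 alone and 0.56 in sheet set 2 alone. The groups are spread unequally over these sets, so the values by group may carry a difference between sets. The share of all gene pairs that pass this test was not computed.

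The genes were next set beside marker lists of the cell types that a striatal dissection can hold, each list summarised as the mean of its genes' standardized log2 CPM. Of 112 relations, 57 were positive and 17 negative past an adjusted permutation p of 0.05. How many of all tested genes would pass against these lists was not computed. *Slc35d3* had r = 0.95 with the list of all medium spiny neurons, *Tac1* 0.93, *Ebf1* 0.93, *Chrm4* 0.89 and *Sfxn1* 0.71. The share of variance of log2 CPM that this score took up was 90.6% for *Slc35d3*, 87.2% for *Tac1*, 86.6% for *Ebf1*, 79.7% for *Chrm4*, 56.5% for *Rxfp1*, 50.8% for *Sfxn1*, 11.7% for *Crym* and 3.29% for *Eya1*. The drinking group took up 13% for *Eya1* and at most 3.16% for each of the other 7.

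The same 5 genes followed indirect-pathway genes as well as direct-pathway ones. With a list of *Adora2a* (the adenosine receptor), *Penk* (the enkephalin precursor), *Drd2* (the D2 receptor), *Gpr6* and *Sp9*, r was 0.99 for *Slc35d3*, 0.94 for *Tac1*, 0.89 for *Ebf1*, 0.82 for *Chrm4* and 0.68 for *Sfxn1*, beside 0.97, 0.98, 0.86, 0.81 and 0.70 with the direct-pathway list. The difference between these correlations was not tested. *Slc35d3* had r = 0.98 with *Adora2a*, 0.98 with *Penk* and 0.96 with *Drd1*, and *Tac1* had 0.92, 0.95 and 0.95 with the same 3 genes.

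*Rxfp1* followed genes of cortical glutamatergic neurons. Its r with a list of 8 such genes was 0.87 (rho 0.87, adjusted permutation p = 2.43e-05, and 0.85 without the 2 farthest libraries), with 0.87 in sheet set 1 and 0.85 in sheet set 2. By gene it was 0.82 for *Slc17a7* (the vesicular glutamate transporter VGLUT1) and 0.88 for *Tbr1* (a cortical transcription factor). The cortical score took up 76.0% of its variance. The 8 cortical genes were all tested and none was at 0 throughout a group, and their summed level ran from 155 to 2465 CPM in High Drinker and from 409 to 3001 CPM in Low Drinker libraries. The 5 co-varying genes had r from -0.83 (*Ebf1*) to -0.62 (*Sfxn1*) with this list. The part of cortical tissue in these correlations was not tested.

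In the library Low Drinker 33, the lowest in *Slc35d3*, the score of medium spiny neurons was -2.50 and the cortical score 1.23, in units of the SD over libraries averaged over the list. Low Drinker 32 had -2.55 and 1.27. High Drinker 17, the lowest in *Rxfp1*, had 1.43 and -3.01.

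*Ebf1* and *Sfxn1* followed genes enriched in the matrix, the larger of the compartments of the striatum, about as closely as those of all medium spiny neurons. For *Ebf1*, r was 0.93 with a list of *Calb1*, *Epha4*, *Id4* and *Rasgrp2*. It was 0.73 with a list of striosome genes (*Oprm1*, *Kremen1*, *Tshz1*, *Lypd1* and *Rasgrp1*). The same 2 values were 0.75 and 0.55 for *Sfxn1*, 0.83 and 0.76 for *Chrm4*, 0.77 and 0.71 for *Slc35d3*, and 0.74 and 0.67 for *Tac1*. The differences between these were not tested. Within the matrix list, r of *Ebf1* was 0.85 for *Calb1*, 0.92 for *Id4* and 0.11 for *Epha4*. Within the striosome list it ran from -0.07 (*Rasgrp1*) to 0.64 (*Oprm1*). Over all libraries *Eya1* had r = 0.51 with astrocyte genes (rho 0.51, adjusted permutation p = 2.43e-05), the highest of the 14 lists. This r was 0.58 in sheet set 1, 0.61 in sheet set 2 and 0.42 without the 5 least similar libraries. That rank did not hold within groups of libraries: the list of thalamic and other subcortical neurons was higher in sheet set 2 (0.77) and in High Drinker libraries (0.51 against 0.41), the matrix list was level with astrocytes in sheet set 2 (0.61), and microglia were higher in Low Drinker libraries (0.57 against 0.54). By gene this was 0.63 for *Aqp4* (the water channel of astrocyte endfeet), 0.54 for *Slc1a3* (a glutamate transporter) and 0.20 for *Gfap*. It was -0.12 for *Aldh1l1*, named here after its value was seen. Among oligodendrocyte precursor genes, r of *Eya1* was 0.60 for *Pdgfra*, 0.16 for *Cspg4* and -0.16 for *Olig1*. Among microglia genes it was 0.48 for *Cx3cr1*, 0.26 for *P2ry12* and 0.21 for *Csf1r*. *Crym* had r = -0.53 with *Slc17a6* and *Tcf7l2*, genes of thalamic and other subcortical excitatory neurons. The Spearman correlation was -0.21, and r was -0.23 without the 2 libraries farthest in that score, so the relation rests on those libraries. They are Low Drinker 2 and 3, the lowest in *Crym*, with scores of 5.33 and 3.26. Within sheet sets 1 and 2, which hold neither, r was -0.22 and -0.32.

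**Figure D4:**
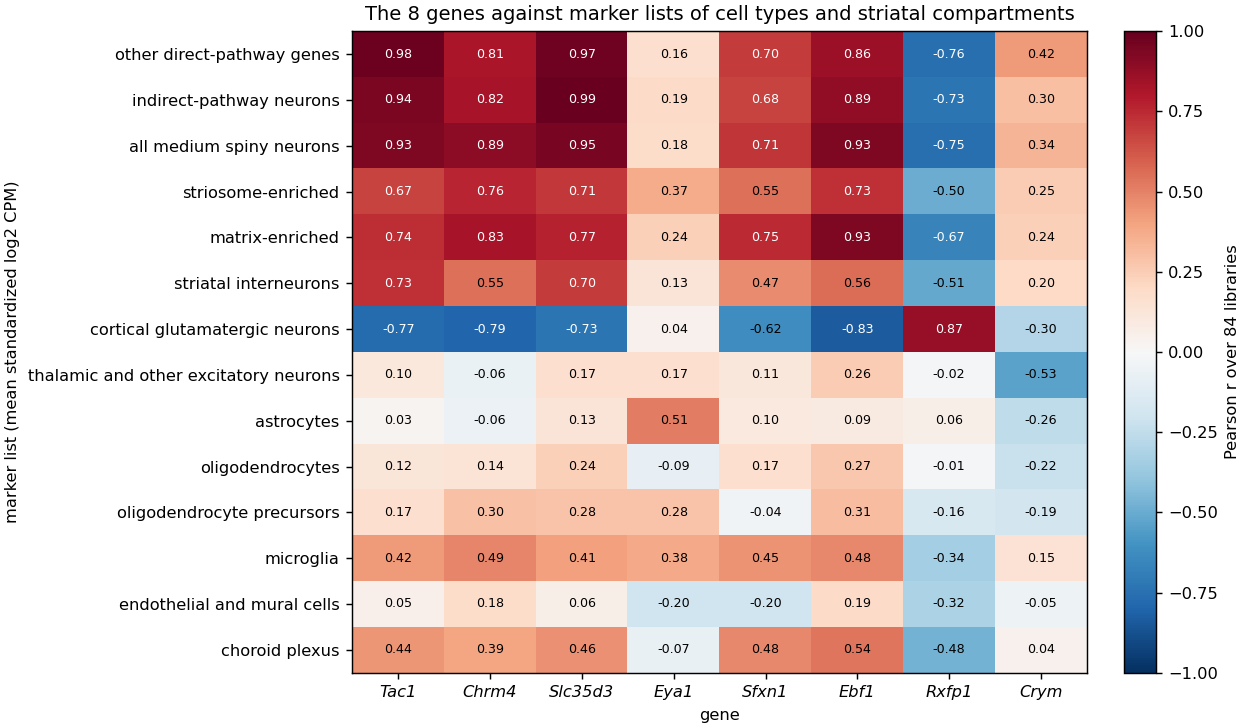
Pearson r over 84 libraries between log2 CPM of each of the 8 genes (columns) and the mean standardized log2 CPM of 14 marker lists (rows), on a colour scale from -1 (blue) to 1 (red). The 3 upper lists and the cortical list give opposite signs for each gene but *Eya1*. *Rxfp1* is reversed against *Tac1*, *Chrm4*, *Slc35d3*, *Sfxn1* and *Ebf1*. *Eya1* has 0.16, 0.19 and 0.18 for the upper lists, 0.04 for the cortical list and 0.51 for astrocytes.

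**Figure D5:**
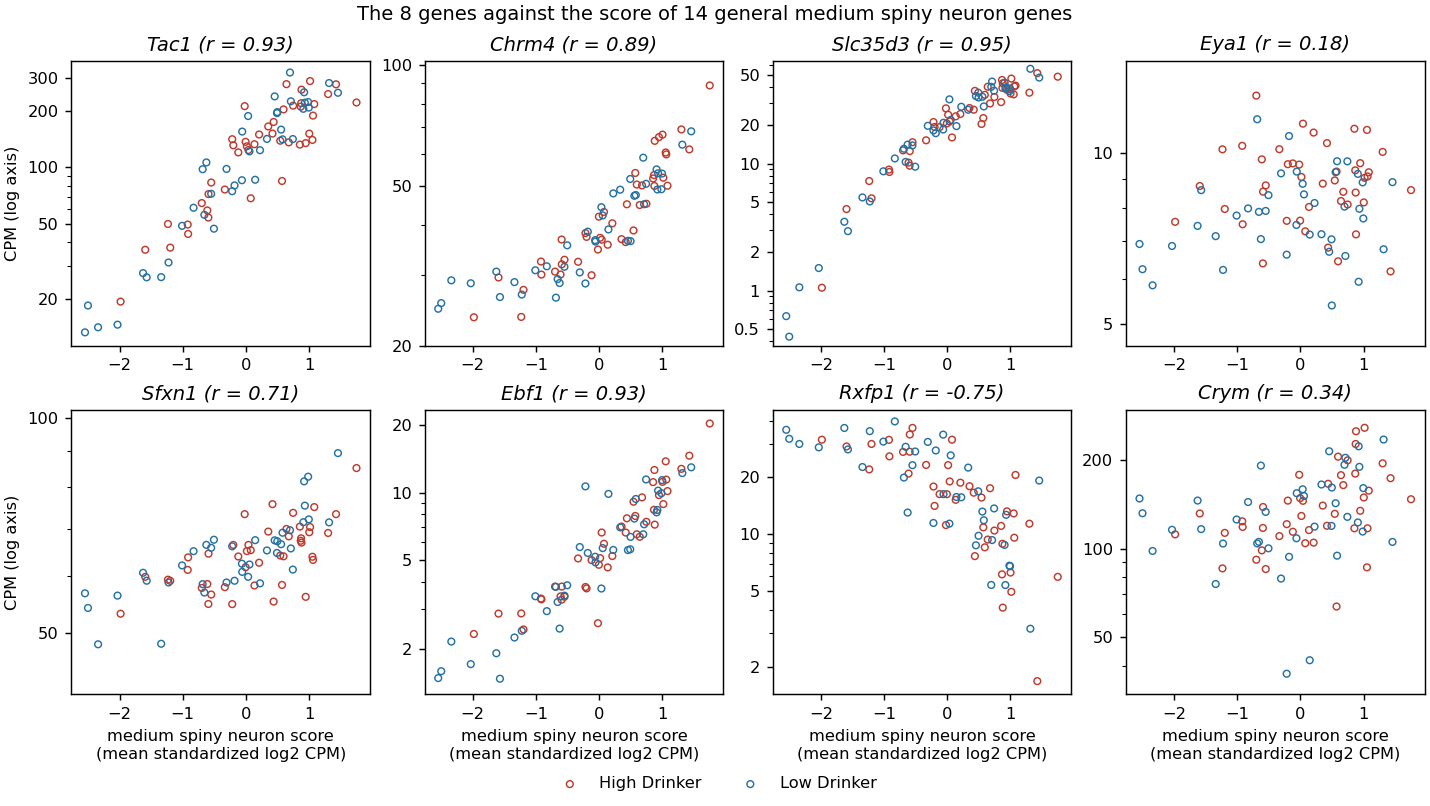
CPM of each gene (log axis) against the score of 14 medium spiny neuron genes (mean standardized log2 CPM) in 84 libraries, High Drinker in red and Low Drinker in blue. The points form a continuous band, rising for *Tac1*, *Chrm4*, *Slc35d3*, *Sfxn1* and *Ebf1* and falling for *Rxfp1*, with r from 0.95 for *Slc35d3* to -0.75 for *Rxfp1*.

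After the medium spiny neuron score was taken out of each gene, 10 of 28 pairs passed the threshold, 3 positive and 7 negative. The share of all gene pairs that pass after this step was not computed. Within the 5 genes the median r fell to -0.15. *Tac1* and *Slc35d3* had a positive correlation of 0.59, and *Tac1* and *Crym* one of 0.48. *Tac1* with *Ebf1* turned to -0.55, *Chrm4* with *Slc35d3* to -0.54 and *Slc35d3* with *Ebf1* to -0.44. The 5 negative correlations of *Rxfp1* with these genes, -0.76 to -0.55 before, lay between -0.24 and 0.15 with a median of -0.035, and 0 of 5 passed. *Rxfp1* had 0.40 with *Eya1* and -0.35 with *Crym*, both past the threshold. Residuals of genes measured against 1 shared score are not independent, since the score is itself measured with error.

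Genes whose levels followed each member most closely were sought among 13369 named genes with a mean of at least 1 CPM, by Pearson r over 84 libraries. *Slc35d3* was nearest to *Gpr6* (0.99), the orphan receptor of the indirect-pathway list, and to *Serpina9* (0.98). *Tac1* was nearest to *Pcp4l1* and *Prkch* (both 0.98), *Chrm4* to *Bcr* (0.95) and *Mbtps1* (0.94), and *Ebf1* to *Spock3* and *Srgap1* (both 0.95). *Rxfp1* was nearest to *Car10* (0.90) and *Rassf5* (0.89) and *Sfxn1* to *Ppp2r2a* (0.85) and *Mettl9* (0.84). *Crym* with *Fkbp1a* (0.75) and *Fig4* (0.72), and *Eya1* with *Lrp12* and *Mfap3l* (both 0.67), had less close neighbours. For the mean of the 8 genes, the closest was *Drd1* at 0.95, followed by *Rarb* (0.94) and by *Foxo1*, *Bcl11b*, *Sowaha*, *Ankrd63*, *Plppr1*, *Sertad4*, *Gng7* and *Arpp21* (all 0.93). The most opposed were *Trim3* (-0.90), *Tmem8* (-0.89) and *Sema4a* (-0.87).

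Partner genes of the 8 were listed by role: 57 genes, of which 49 passed the filter on low counts. For the difference between the drinking groups, 1 of 49 rose, 0 fell, and 7 had an unadjusted p under 0.05. Of all tested genes 1.86% were higher, 2.08% lower and 18% under that unadjusted p, so the partners did not exceed the background by these counts. Their median log2 difference was 0.01, with 27 of 49 positive. The partner that rose was *Mthfd2*, an enzyme of mitochondrial folate metabolism that uses the one-carbon units released from the serine carried by *Sfxn1*. It measured 7.68 ± 1.05 CPM (SD, n = 44) in High Drinker and 6.53 ± 0.959 CPM (n = 40) in Low Drinker libraries, a log2 difference of 0.25 ± 0.05 (SE, edgeR adjusted p = 0.000174), with 39 of 44 High Drinker libraries above the Low Drinker median. In sheet set 1 and sheet set 2 alone it was 0.22 ± 0.06 (adjusted p = 0.0784) and 0.33 ± 0.08 (adjusted p = 0.0639), and in females and males alone 0.20 (adjusted p = 0.285) and 0.29 (adjusted p = 0.02). The other 7 *Sfxn1* partners, the sideroflexins *Sfxn2* to *Sfxn5* with *Shmt2*, *Mthfd1l* and *Mthfd2l*, did not pass.

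No call was made among the partners of the other genes. Of the 8 tested partners of *Tac1* (tachykinins, their receptors and peptide-processing enzymes), of the 9 of *Chrm4* (muscarinic receptors, inhibitory G proteins and *Rgs4*) and of the 7 of *Crym* (thyroid hormone receptors, deiodinases and transporters), 0 passed. The same held for 7 of *Eya1*, 4 of *Ebf1*, 4 of *Rxfp1* and 2 of *Slc35d3*. The median log2 difference was 0.02 for the *Tac1* list, 0.03 for *Chrm4*, 0.04 for *Crym*, 0.04 for *Eya1*, -0.14 for *Ebf1*, -0.14 for *Rxfp1* and 0.00 for *Slc35d3*. Among the 72 tested genes of the cell type lists, 1 passed, where 3.94% of all genes did. It was *Cspg4* of oligodendrocyte precursors, with a log2 difference of 0.21 ± 0.05 (SE, edgeR adjusted p = 0.00344). In sheet sets 1 and 2 alone it was 0.18 and 0.32 and did not pass (adjusted p = 0.196 and 0.111), nor did it in females or males alone (0.285 and 0.097).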

How the data were processed

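Ventrolateral striatum of 84 naive mice was sequenced, 1 library per animal. Per the labels' protocols, RNA was amplified as cDNA with an Ovation kit, made into libraries with a TruSeq DNA kit and read single-ended. The submitters' processing notes list edgeR, featureCounts, Subread, STAR and FastQC with mm10; their versions and the strand setting were not given in the sources used here. Deposited values are raw read counts per gene for 43629 Ensembl genes, of which 42462 matched a symbol, and the authors' table adds the summed exon length, which was used for levels per kilobase. Amplified cDNA carries no molecular identifiers, so counts are of reads. No entry lacked a gene. Total counts were 22190363 to 41300401 per library. The lowest count of any of the 8 genes was 12, for *Slc35d3*, and the lowest for *Ebf1*, the scarcest per kilobase, was 40.

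Counts were fitted with edgeR 4.0.16 (R 4.3.3; TMM, filterByExpr, 17071 genes, quasi-likelihood test on sheet set, sex and group, Benjamini-Hochberg over all tested genes at 0.05). SE is the absolute log2 difference over the square root of F. Variability was tested with limma 3.58.1. Correlations used log2 CPM (prior count 2) and permutation tests, adjusted over 28 pairs or 112 relations. DESeq2 1.42.0, limma-voom and sva 3.50.0 (5 surrogate variables) were alternatives. The edgeR fits for group, sex and their interaction and the variability test were tried on simulated counts. Sheet sets were read from sample sheet numbers in the titles. Promoters are RefSeq's. Members and lists were chosen with earlier results of these data known. Named were the 8 members, list genes past the threshold, up to 3 genes per list in its written order, and for each member the 2 most alike genes.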

Additional observations from a re-analysis of the deposited data

How the results depend on the processing

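No gene among the 8 passed for the group difference in the fit reported, and 1, *Eya1*, passed under DESeq2, without the sheet set term (0.18, edgeR adjusted p = 0.0279, 5.07% of all genes called), with the cortical score as covariate (0.17, 0.0425, 6.67%) and with 5 surrogate variables (0.14, 0.0228, 14.6%); over its 16 alternatives the adjusted p ran from 0.0228 to 0.989. The sign of differences that were not called turned for *Tac1* in sheet set 1 (-0.044), in females (-0.24), with the medium spiny neuron score (-0.022) and without the 5 least similar libraries (-0.047). It turned for *Slc35d3* in the same 4 settings (-0.085, -0.17, -0.045 and -0.038), for *Chrm4* in sheet set 1 (-0.014), for *Sfxn1* without the sheet set term (0.0012), for *Ebf1* and *Rxfp1* in females (-0.024 and 0.17) and with the score (-0.014 and 0.013), and for *Crym* with the score (-0.011). Of 28 pairs, 20 passed in the Pearson correlation reported and 22 with ranks. After the medium spiny neuron score 10 passed, and after that and the cortical score 11. In these 2 settings r turned to -0.39 and -0.40 for *Tac1* with *Chrm4*, -0.55 and -0.58 for *Tac1* with *Ebf1*, -0.44 and -0.38 for *Slc35d3* with *Ebf1* and -0.016 and -0.015 for *Tac1* with *Eya1*, the last also in sheet set 1 (-0.16) and in High Drinker libraries alone (-0.048). The difference in correlation between groups passed for 1 pair with ranks. The variability difference of *Slc35d3* ran from -0.44 to -0.17 over 5 alternatives, none past the threshold. The cause was not tested. Over all genes, 672 calls became 79 in sheet set 1 alone, 79 in sheet set 2, 35 in females, 107 in males, 425 without the 5 least similar libraries, 1017 and 1138 with the medium spiny neuron and cortical scores and 2490 with surrogate variables. The variability test went from 2 calls to 26 with deviations from the mean and 5 with a prior count of 0.5, and the sex difference from 17 to 34 without the filter. The alternative without the 5 least similar libraries was chosen after seeing the data. No paired analysis was possible because the replicate numbers were given in accession order and pair no animals.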
